A study of Mus musculus with 24 samples.

Results

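The comparison described here set Cd146+ against Cd31+ mouse liver endothelial cells that carried a control construct. It used 12 of the 24 RNA sequencing libraries of the series, 6 from Cd146+ and 6 from Cd31+ cells, chosen by their labels. In each population 3 libraries came from cells with a non-targeting shRNA (nc shRNA, in the pLKO.1 vector) and 3 from cells with an empty vector (pLenti-C-mGFP-P2A-Puro, which encodes a green fluorescent protein and puromycin resistance). The remaining 12 libraries carried a P16 shRNA or a P16 expression construct and served only as a second look at the same genes. All cells came from C57BL/6 mice, whose livers were digested and passed over magnetic columns with antibodies to Cd31 or to Cd146. The cells were then cultured in serum, transduced with lentivirus and harvested for RNA a week later, so every library holds a cultured and transduced population and none holds freshly isolated cells. The methods state that the mice were 3-month-old females. The design asks which transcripts separate the 2 populations when P16 itself is left untouched.

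CD31, encoded by Pecam1, is an adhesion molecule at the contacts between endothelial cells and is used to collect endothelium of every vessel type. CD146, encoded by Mcam, is an adhesion molecule of endothelial cells, pericytes and smooth muscle, and is used in liver to enrich the sinusoidal endothelium. Sinusoidal endothelial cells line the liver capillaries, are fenestrated and take up waste molecules with scavenger receptors such as Stab1, Stab2, Lyve1 and Clec4g. They are known to lose this character in culture, and outgrowth of mesenchymal cells is a known feature of primary liver cultures.

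The libraries held 15409767 to 25523585 counted reads each, so that a floor of 3 reads corresponded to 0.118 to 0.195 CPM. Levels are given in CPM (counts-per-million) after TMM scaling. Y-linked transcripts (Ddx3y, Eif2s3y, Kdm5d and Uty) were present in 8 of the 12 libraries, 5 from Cd31+ and 3 from Cd146+ cells, at a summed 125 to 254 CPM before TMM scaling, whereas the stated mice were female. The remaining 4 libraries (Cd31+ empty vector 5, Cd146+ nc shRNA 5, Cd146+ empty vector 4 and Cd146+ empty vector 5) had Xist at 566 to 764 CPM and Y-linked transcripts between 0 and 0.226 CPM. This split followed the replicate number and not the construct. After the population means were removed, the 7 pairs of libraries with the same number in the 2 populations correlated with r = 0.127 to 0.542 across genes, with a median of 0.27, against r = -0.54 to 0.30 with a median of -0.07 for the 29 pairs with different numbers, so that the ranges overlapped. The replicate number was therefore also fitted as a block, and the value with the block is given wherever it changed a call. The number 4 occurs only among the Cd146+ libraries, so that library adds nothing to the population difference in the blocked fit. Among the Cd146+ libraries 2 stood apart. In empty vector 4, 837 genes lay at least 2-fold beyond all other 11 libraries, and Col1a1, a chain of type I collagen, was at 462 CPM against 4621 CPM or more elsewhere. In nc shRNA 3, 375 genes lay that far out, and endothelial transcripts were at their lowest, as described next. Within a population, the 3 pairs of libraries with the same number correlated with r = 0.33 to 0.75. The 27 pairs with different numbers had r = -0.46 to 0.14. What the numbers stand for (an animal, a pool or a day) is not given in the sources used here. The fit without the block treats all 12 libraries as independent. Its p-values, and the gene counts drawn from them, thus measure the spread between these libraries and do not allow for this likeness.

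The transcripts of the sorting antigens did not separate the populations. Pecam1 ranged from 88.4 through a median of 100.4 to 251 CPM in the Cd31+ libraries and from 10.1 through 186 to 260 CPM in the Cd146+ libraries. Mcam ranged from 77.5 through 115 to 298 CPM in Cd31+ and from 11.6 through 212 to 387 CPM in Cd146+ libraries. In both cases the groups overlapped over most of their range, and the lowest value belonged to Cd146+ nc shRNA 3. The log2 fold change, Cd146+ against Cd31+, was 0.37 ± 0.56 (SE) for Pecam1 and 0.51 ± 0.57 for Mcam (adjusted p = 0.747 and 0.650). With the replicate block the estimates were 0.02 ± 0.68 and -0.07 ± 0.64. Cdh5, the cadherin of endothelial junctions, behaved alike, with a lowest value of 6.34 CPM in Cd146+ nc shRNA 3 against 57.0 CPM or more in the other 11 libraries. Of the 30 pan-endothelial genes tested, 0 passed an unadjusted p under 0.05 in either direction. Among all genes tested 8.34% were higher and 9.12% lower in Cd146+ cells. The log2 fold changes of the pan-endothelial genes were positive for 29 of 30 with a median of 0.76. Their summed level overlapped (667 to 2260 CPM in Cd31+, 573 to 2728 CPM in Cd146+ libraries). That median moved between 0.20 and 1.22 when single libraries were left out and was 0.12 with the block. The number of higher genes was 0 to 7 when single libraries were left out, and 6 without Cd146+ nc shRNA 3 and empty vector 4 together.

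Of the 4 defining sinusoidal markers 3 were at low levels in both populations. Clec4g, a lectin of the sinusoid, was between 0 and 0.225 CPM in Cd31+ and between 0 and 0.0417 CPM in Cd146+ libraries, thus at or near the floor. Stab2, the hyaluronan scavenger receptor, stayed at or below 0.738 CPM in Cd31+ and 0.966 CPM in Cd146+ libraries, and Lyve1 at or below 2.15 and 4.96 CPM. Stab1, a scavenger receptor also found on macrophages, was the only 1 of the 4 defining markers with a sizeable level. It was at 149 and 99.3 CPM in Cd31+ empty vector 5 and nc shRNA 3, at 362 and 301 CPM in Cd146+ empty vector 5 and nc shRNA 5, and at 32.4 CPM or below in the other 8 libraries. High Stab1 thus occurred in both populations. Of 20 sinusoidal genes tested, 1 was higher and 0 were lower in Cd146+ cells at an unadjusted p under 0.05, with a median log2 fold change of 0.08. Among all genes tested 8.34% were higher and 9.12% lower. The summed level of the sinusoidal list overlapped (721 to 1242 CPM in Cd31+ and 578 to 1081 CPM in Cd146+ libraries).

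Mesenchymal transcripts were far more abundant than endothelial transcripts in both populations. Per length, the median level of Col1a1 was 1935 FPKM in Cd31+ and 1554 FPKM in Cd146+ libraries, that of Acta2, smooth muscle actin, was 1286 and 1285 FPKM, and that of Fn1, fibronectin, was 2096 and 1425 FPKM. The corresponding medians were 15.8 and 29.5 FPKM for Pecam1, 14.6 and 30.2 FPKM for Cdh5, and 33.7 and 62.9 FPKM for Mcam. In such bulk libraries fewer cells of a type and less RNA per cell cannot be told apart. Mesothelial transcripts, from the covering layer of the organ, were also detected in every library. Msln was at 33.9 to 101 CPM in Cd31+ libraries and at 9.47 to 47.9 CPM in Cd146+ libraries other than nc shRNA 3, where it reached 432 CPM. Upk3b was at 40.2 to 207 CPM in Cd31+ libraries and at 11.95 to 317 CPM in Cd146+ libraries, again highest in nc shRNA 3. The hepatocyte marker Alb, the Kupffer cell marker Clec4f and the lymphocyte marker Cd3e were at or near the floor. Alb did not exceed 0.439 CPM, Clec4f was at 0 in all 12 libraries, and Cd3e did not exceed 0.0413 CPM. Other hepatocyte genes were detected. The summed hepatocyte list ranged from 302 to 1184 CPM in Cd31+ and from 264 to 415 CPM in Cd146+ libraries, and 5 of its 21 genes passed the filter for testing. Of the cholangiocyte markers, Epcam did not exceed 0.0460 CPM, whereas Sox9 was at 2.24 to 16.4 CPM in Cd31+ and at 4.48 to 134 CPM in Cd146+ libraries, highest in empty vector 4. The summed cholangiocyte list was highest in Cd31+ nc shRNA 1 (806 CPM) and Cd31+ empty vector 1 (592 CPM). It was at 57.6 to 82.8 CPM in the other Cd31+ libraries and at 48.9 to 251 CPM in Cd146+ libraries. The median sums were 80.0 CPM in Cd31+ and 149 CPM in Cd146+ libraries. Of 9 genes of this list tested, 8 had a positive log2 fold change, with a median of 1.43 (0.61 with the block). At an unadjusted p under 0.05, 0 were higher and 0 lower, against 8.34% and 9.12% of all genes. The macrophage genes Csf1r (1.20 to 18.0 CPM) and Adgre1 (0.292 to 10.6 CPM) were detected in every library. The summed macrophage list ranged from 52.8 to 192 CPM in Cd31+ and from 29.9 to 442 CPM in Cd146+ libraries, and the highest sums were those of Cd146+ nc shRNA 5 (442 CPM) and empty vector 5 (406 CPM), which also had the highest Stab1. The part of these cells in the Stab1 level was not tested.

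**Figure D1:**
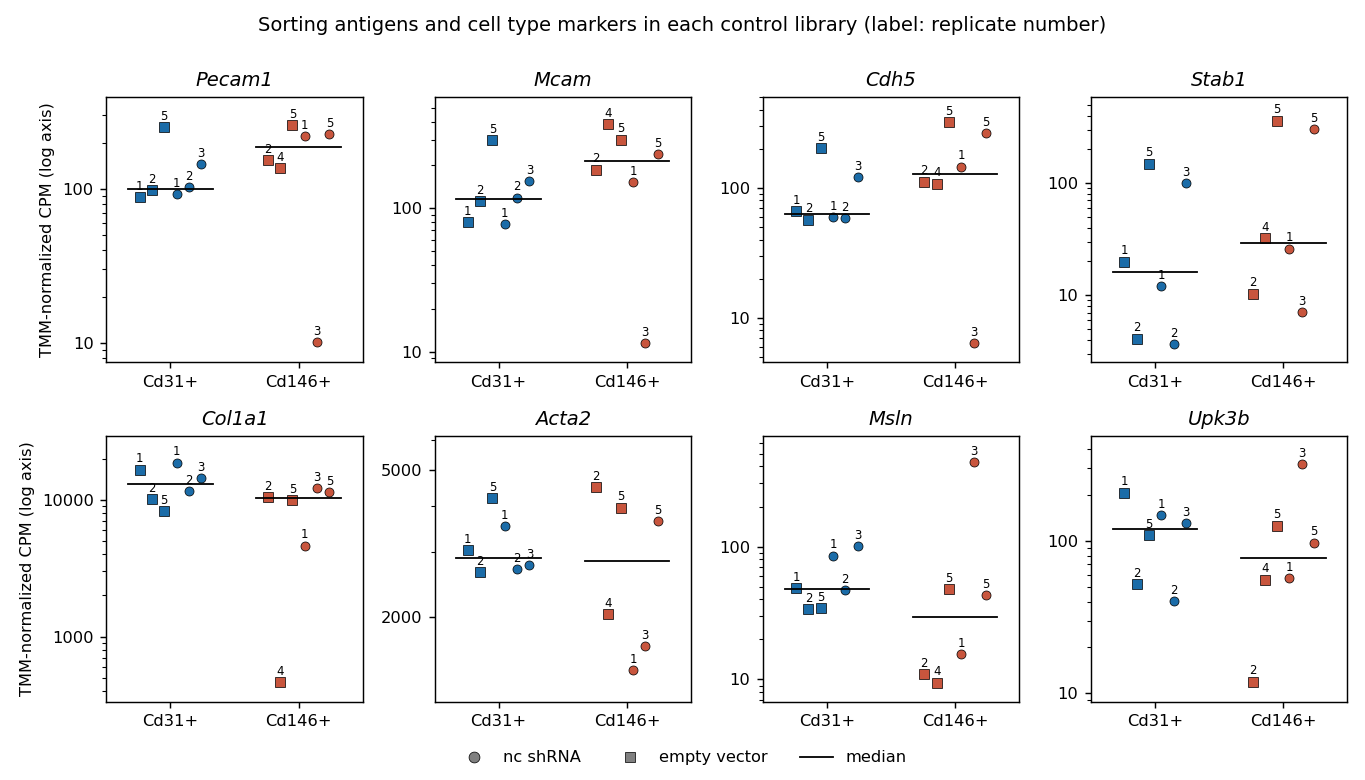
TMM-normalized level (CPM, log axis) of 8 marker genes in the 6 Cd31+ and 6 Cd146+ control libraries, with a symbol for each construct, the replicate number beside each point and a line at the median. Pecam1, Mcam and Cdh5 overlap between the populations and are lowest in Cd146+ nc shRNA 3, where Msln and Upk3b are highest, and Col1a1 is low in Cd146+ empty vector 4.

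Of 15676 genes tested, 0 (0%) passed an adjusted p under 0.05 for the difference between the populations with the construct as a term. At an unadjusted p under 0.05 there were 2737 genes, 1307 higher (8.34%) and 1430 lower (9.12%) in Cd146+ cells. The libraries of the populations did not overlap for 126 genes with all 6 Cd146+ libraries above (0.804%) and for 136 genes with all 6 below (0.868%). With the replicate number as a block, 1411 of 15676 genes were higher and 1474 lower in Cd146+ cells at an unadjusted p under 0.05. Counts of list genes with the block, given below, stand against these numbers. In that fit 57 genes passed an adjusted p under 0.05 (0.364%), 35 of them higher and 22 lower in Cd146+ cells. That blocked count ranged from 2 without Cd31+ nc shRNA 2 to 211 without Cd31+ nc shRNA 3, and it was 20 in the 8 libraries with Y-linked transcripts. Among the genes named here, Svep1 and Arhgdib kept an adjusted p under 0.05 with the block in each of these 13 refits. The other fits that use the numbers, same-numbered libraries summed and limma voom with an estimated correlation between them, gave 0 genes at an adjusted p under 0.05 (1265 and 1341 at an unadjusted p under 0.05), so the blocked calls rest on that fit. DESeq2, which tests the same counts with a Wald statistic, gave 661 genes at an adjusted p under 0.05 without a block. Adjusted p-values below are those of edgeR unless another tool is named.

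**Figure D2:**
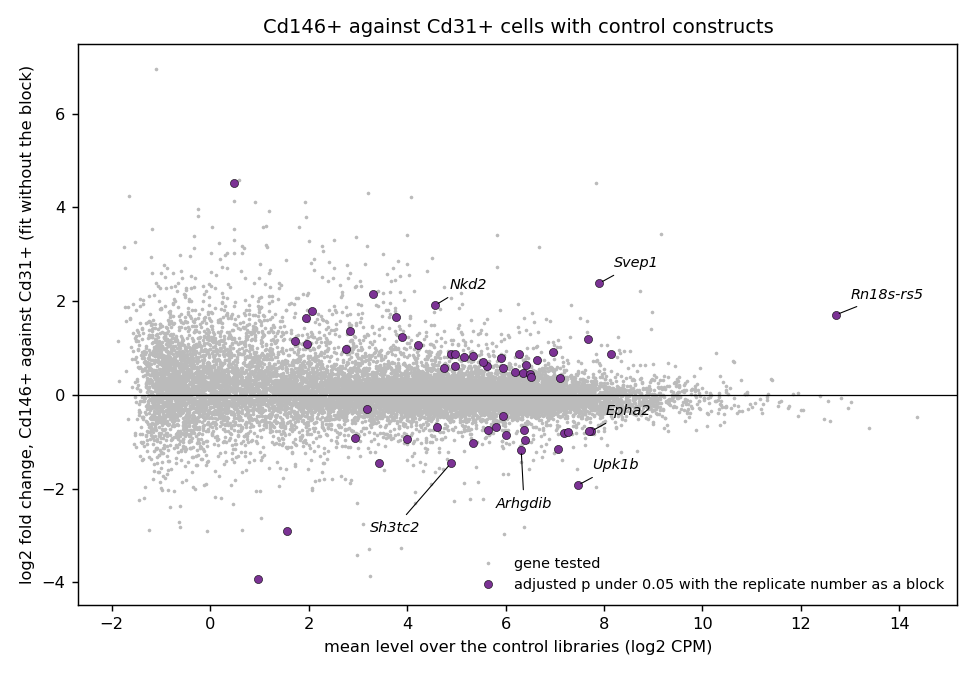
Each point is a tested gene, placed by its mean level over the 12 libraries (log2 CPM) and its log2 fold change in Cd146+ against Cd31+ cells, fitted without the block. The 57 filled points passed an adjusted p under 0.05 with the replicate number as a block, 35 higher and 22 lower, and Svep1 and Upk1b are among them at high expression.

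Svep1 led the genes that were higher in Cd146+ cells. It encodes a large secreted matrix protein with EGF, sushi and pentraxin domains that is needed for lymphatic vessel formation, and lies on chromosome 4 at 58042442 to 58206859 in the deposited table, which does not name its genome build. Its level ranged from 47.8 through a median of 70.9 to 147 CPM in the Cd31+ libraries and from 277 through 335 to 654 CPM in the Cd146+ libraries. Every Cd146+ library was above every Cd31+ library, and the highest Cd31+ value was that of nc shRNA 3. The log2 fold change was 2.38 ± 0.33 with an adjusted p of 0.096, and 2.21 ± 0.12 with an adjusted p of 0.000654 with the block. The 13 refits with the block gave adjusted p between 0.000565 and 0.02. With same-numbered libraries summed the adjusted p was 0.570 and with limma voom 0.126. It was 2.29 in the libraries with Y-linked transcripts alone, and 1.57 and 2.19 in the P16 shRNA and P16 libraries (unadjusted p = 0.047 and 0.0054).

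Other genes of smallest p among those higher in Cd146+ cells without overlap were Vegfc, Dtx4 and Dact3. Vegfc, the growth factor of lymphatic endothelium, ranged from 4.88 through 6.37 to 9.46 CPM in Cd31+ and from 9.71 through 15.6 to 25.4 CPM in Cd146+ libraries. The closest pair of values was thus 9.46 and 9.71 CPM, and the log2 fold change was 1.19 ± 0.17 (adjusted p = 0.096, with the block 0.064). It was 1.67 in the P16 libraries and 0.14 in the P16 shRNA libraries. Dtx4, a ubiquitin ligase of the Notch pathway, ranged from 4.23 to 9.34 CPM in Cd31+ and from 12.2 to 37.6 CPM in Cd146+ libraries, with a log2 fold change of 1.80 ± 0.32 (adjusted p = 0.107, with the block 0.0541). Dact3, an inhibitor of Wnt signalling, ranged from 13.3 to 26.0 CPM and from 29.3 to 47.7 CPM, with a log2 fold change of 0.87 ± 0.13. Its adjusted p was 0.096, and 0.0451 with the block. The log2 fold change of Dact3 was 0.90 in the P16 shRNA and 0.35 in the P16 libraries.

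The other 8 protein-coding genes with the smallest p among those higher in Cd146+ cells, chosen from genes whose libraries did not overlap, were Ost4, Ndufa11, Ubl5, Cox6a1, 1810037I17Rik, Sdsl, Iscu and Emc7. Their log2 fold changes lay between 0.34 and 0.95, and none passed an adjusted p under 0.05 in edgeR without the block, whereas all 8 did with DESeq2's Wald test (adjusted p = 3.31e-06 to 0.000453). With the block Ost4, a small subunit of the oligosaccharyltransferase, Ubl5, a ubiquitin-like splicing factor, Iscu, the scaffold of iron-sulfur cluster assembly, and 1810037I17Rik did (adjusted p = 0.0386, 0.0444, 0.0449 and 0.0298). In the P16 shRNA libraries the log2 fold changes of these genes were 0.91, 0.76, 0.55 and 1.16. In the P16 libraries they were 0.11, 0.14, 0.43 and -0.29. Ost4 ranged from 34.4 through 46.7 to 48.7 CPM in Cd31+ and from 56.6 through 77.5 to 87.1 CPM in Cd146+ libraries. Cox6a1, a subunit of cytochrome c oxidase, ranged from 168 through 182 to 211 CPM and from 241 through 254 to 269 CPM. Ndufa11, a subunit of respiratory complex I, ranged from 26.6 to 37.8 CPM and from 41.2 to 52.8 CPM.

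**Figure D3:**
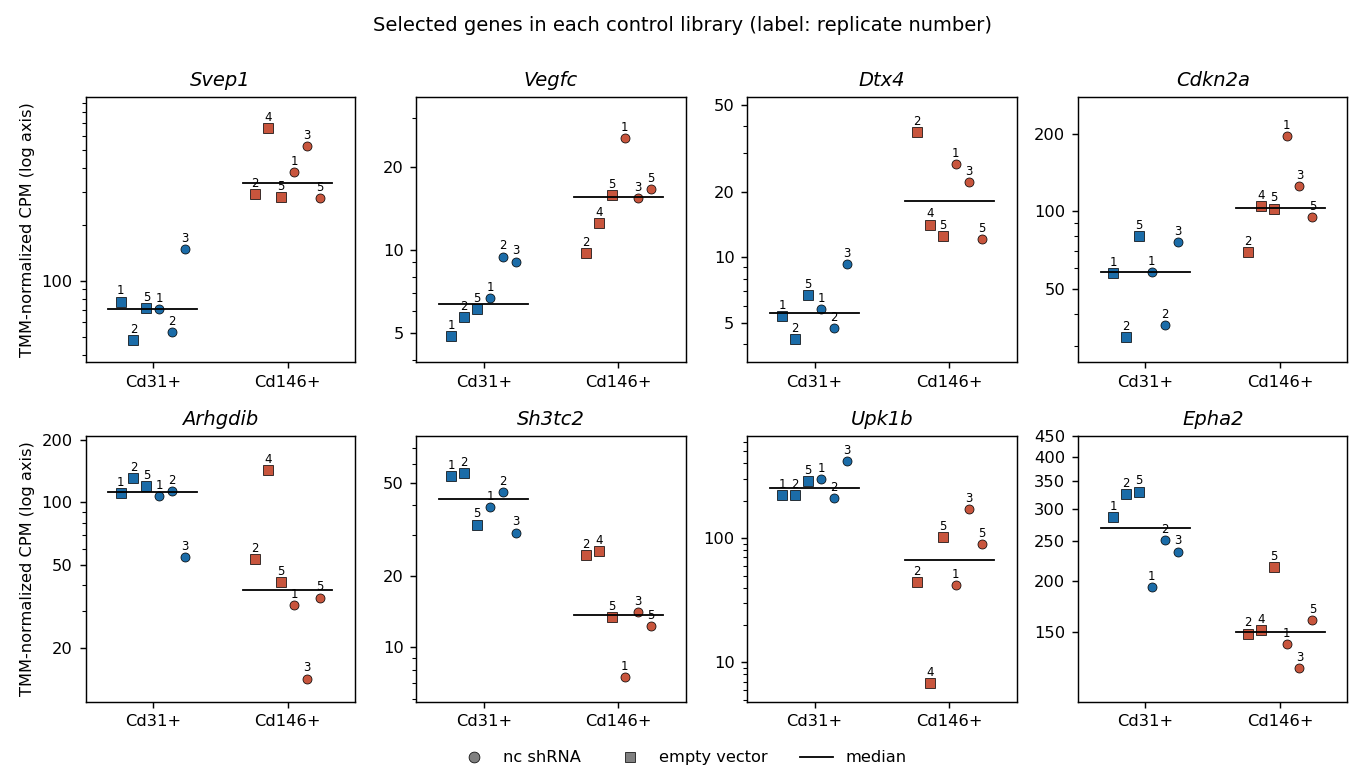
TMM-normalized level (CPM, log axis) of 8 genes in each control library, with a symbol for each construct, the replicate number beside each point and a line at the median. Svep1, Vegfc, Dtx4, Sh3tc2 and Upk1b have no overlap between populations, whereas Cdkn2a, Arhgdib and Epha2 overlap in at least 1 library.

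Among genes lower in Cd146+ cells, Sh3tc2 was called with the block and did not overlap. Sh3tc2, an adaptor protein of the endosome, ranged from 30.6 through 42.4 to 55.0 CPM in Cd31+ and from 7.43 through 13.7 to 25.6 CPM in Cd146+ libraries. Its log2 fold change was -1.46 ± 0.24 (adjusted p = 0.096, with the block 0.0444), and -1.38 and -1.64 in the P16 shRNA and P16 libraries. Lpcat2, an enzyme of phospholipid remodelling, showed the largest difference among the genes named by the smallest p in that direction. It ranged from 26.8 through 44.0 to 104 CPM and from 2.80 through 10.8 to 17.9 CPM, with a log2 fold change of -2.27 ± 0.45 (adjusted p = 0.121, with the block 0.107). Bcl2l11, the pro-apoptotic protein Bim, ranged from 19.5 to 31.4 CPM and from 8.37 to 17.6 CPM, with a log2 fold change of -0.91 ± 0.18 (adjusted p = 0.121).

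A further 8 of those genes were Mindy1, Trim33, Alg10b, Csnk1g1, Zfp26, Gtf3c3, Rlim and Zfp292. Their log2 fold changes lay between -0.59 and -0.38 and their adjusted p between 0.096 and 0.121. Trim33 and Rlim are ubiquitin ligases, Zfp26 and Zfp292 are zinc finger proteins, and Gtf3c3 is a subunit of a general transcription factor of RNA polymerase III. None of these 8 passed an adjusted p under 0.05 with the block. In the P16 libraries the log2 fold changes of Zfp26, Gtf3c3, Zfp292 and Alg10b were -0.02, 0.02, 0.07 and 0.12.

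Arhgdib, a regulator of small GTPases known from blood cells, was called with the block and by DESeq2 (adjusted p = 0.0372) and was named after its values were seen. It ranged from 54.5 through 112 to 131 CPM in Cd31+ and from 14.3 through 38.1 to 143 CPM in Cd146+ libraries. Cd146+ empty vector 4, at 143 CPM, was above every Cd31+ library, and the other 5 Cd146+ libraries were below every Cd31+ library, at 53.4 CPM or less. The log2 fold change was -1.18 ± 0.38 (adjusted p = 0.181), and -1.58 ± 0.11 with the block (adjusted p = 0.00183), in which empty vector 4 carries no weight. The call was lost with same-numbered libraries summed (-0.85 ± 0.58, adjusted p = 0.688) and with limma voom and an estimated correlation (adjusted p = 0.533). It lies on chromosome 6 at 136900653 to 136918897 in the same table. In the P16 libraries the difference was -1.87 and in the P16 shRNA libraries -0.65 (unadjusted p = 0.0077 and 0.42).

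Upk1b, F11r and Epha2 were lower and Colec12 was higher in Cd146+ cells with the block. Upk1b, a tetraspanin of urothelium and mesothelium, ranged from 209 through 256 to 417 CPM in Cd31+ and from 6.81 through 67.2 to 171 CPM in Cd146+ libraries. There was no overlap, and the log2 fold change was -1.93 ± 0.54 (adjusted p = 0.148, with the block 0.0279). The other mesothelial markers Msln, Upk3b and Wt1 overlapped between the populations. Of 12 mesothelial genes tested 2 were higher (16.7%) and 1 lower (8.33%) at an unadjusted p under 0.05. Among all genes 8.34% were higher and 9.12% lower. F11r, the junctional adhesion molecule A, also named after its values were seen, ranged from 150 to 250 CPM and from 29.0 to 145 CPM (log2 fold change -1.16 ± 0.31, adjusted p = 0.144, with the block 0.0493). Epha2, a receptor for ephrin-A ligands, ranged from 194 through 269 to 330 CPM and from 123 through 150 to 216 CPM. Its groups overlapped by Cd31+ nc shRNA 1 and Cd146+ empty vector 5 alone, and the log2 fold change was -0.78 ± 0.12 (adjusted p = 0.096, with the block 0.0298). Colec12, a scavenger receptor of vascular endothelium named after its values were seen, differed in the other direction (log2 fold change 0.91 ± 0.26, adjusted p = 0.150, with the block 0.0255).

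Cdkn2a, the locus of P16, lies on chromosome 4 at 89192708 to 89212890 in the deposited table, and its reads cannot be divided between P16 and the other product of the locus in a count per gene. It ranged from 32.5 through 57.9 to 80.1 CPM in the Cd31+ libraries and from 69.5 through 104 to 196 CPM in the Cd146+ libraries. Only Cd146+ empty vector 2 lay within the Cd31+ range. The log2 fold change was 1.00 ± 0.28 (unadjusted p = 0.00397, adjusted p = 0.148) and 0.96 ± 0.20 with the block (adjusted p = 0.0871). It remained between 0.82 and 1.17 when single libraries were left out. In the libraries with the P16 shRNA or the P16 construct, in which the locus itself was targeted or its coding sequence added, it was 1.18 and 1.11 (unadjusted p = 0.051 and 0.075). Cdkn2b, the neighbouring inhibitor P15, ranged from 29.9 to 79.9 CPM and from 45.6 to 194 CPM (log2 fold change 0.74 ± 0.29, adjusted p = 0.237). Fas, a death receptor and p53 target, ranged from 20.3 to 41.7 CPM and from 33.3 to 70.0 CPM (log2 fold change 0.89 ± 0.21, adjusted p = 0.139). Of 26 CDK inhibitors and p53 targets tested, 5 were higher (19.2%) and 2 lower (7.69%) at an unadjusted p under 0.05. Among all genes 8.34% were higher and 9.12% lower. Leaving out single libraries gave 2 to 5 higher and 1 to 4 lower genes of this list. Its median log2 fold change was -0.01.

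Transcripts of mitosis and S phase lay lower in Cd146+ cells. Of 42 tested, 0 were higher and 12 lower at an unadjusted p under 0.05, against 9.12% lower among all genes, and 39 of 42 log2 fold changes were negative with a median of -0.30. None passed an adjusted p under 0.05 with or without the block. The count of lower genes was 5 to 18 when single libraries were left out, 17 without Cd146+ empty vector 4 and nc shRNA 3 together, and 28 in the 8 libraries with Y-linked transcripts. Kif11, the motor that separates spindle poles, ranged from 34.0 through 55.1 to 64.9 CPM in Cd31+ and from 27.1 through 33.1 to 37.2 CPM in Cd146+ libraries (log2 fold change -0.65 ± 0.16, adjusted p = 0.140). Cenpf, a kinetochore protein, ranged from 33.3 to 52.6 CPM and from 19.8 to 41.6 CPM (log2 fold change -0.55 ± 0.14, adjusted p = 0.142). Mcm6, a subunit of the replicative helicase, and Cenpe, a kinetochore motor, had log2 fold changes of -0.51 and -0.52. The list's median was -0.04 in the P16 shRNA and -0.66 in the P16 libraries.

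Secreted signals lay mostly on the higher side in Cd146+ cells. Of 37 chemokines, cytokines and other factors of the senescence secretome, 8 were higher and 0 lower at an unadjusted p under 0.05, against 8.34% and 9.12% of all genes, with 6 to 11 higher when single libraries were left out and 15 with the block. None passed an adjusted p under 0.05 in either fit. Igfbp2, a binding protein of insulin-like growth factors, ranged from 21.2 through 34.3 to 292 CPM in Cd31+ and from 28.8 through 464 to 4536 CPM in Cd146+ libraries. The value of 4536 CPM came from empty vector 4, and the groups overlapped (log2 fold change 3.44 ± 0.99, adjusted p = 0.154, with the block 2.18). Cxcl1, a chemokine of neutrophils, was low, at 0.813 to 4.33 CPM and 4.08 to 11.2 CPM (log2 fold change 1.55 ± 0.44). Igfbp5 was at 0.443 to 2.81 CPM and 2.47 to 22.9 CPM. Of 23 complement and coagulation genes, 3 were higher and 1 lower (2 to 6 higher when single libraries were left out, 7 with the block), with a median of 0.62. C1s1 and C1ra, proteases of the first complement component that were named after their values were seen, were called with the block (log2 fold change 1.42 ± 0.14 and 1.25 ± 0.13, adjusted p = 0.0154 and 0.0188). Without it they were 0.74 ± 0.67 and 0.88 ± 0.47 and their groups overlapped. Masp1, a protease of the lectin pathway, was lower (-1.05 ± 0.36) and Pros1, protein S, higher (0.50 ± 0.18) at an unadjusted p of 0.0144 and 0.0172.

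Wnt pathway members lay in both directions. Of 34 tested, 8 were higher and 3 lower at an unadjusted p under 0.05, with a median log2 fold change of 0.30, against 8.34% higher and 9.12% lower among all genes. Leaving out single libraries gave 5 to 9 higher genes, and without Cd146+ nc shRNA 3 and empty vector 4 there were 4 (median 0.13). With the block the median was 0.08 and 3 genes were called, against 0.364% of all genes. Among receptors, Fzd6 ranged from 170 through 272 to 327 CPM in Cd31+ and from 105 through 152 to 198 CPM in Cd146+ libraries (log2 fold change -0.77 ± 0.21, with the block adjusted p = 0.0471). Fzd1 differed in the other direction (0.36 ± 0.22, with the block 0.61 ± 0.08 and adjusted p = 0.0298) and was named after its values were seen. Among feedback inhibitors, Nkd2 ranged from 3.59 through 7.84 to 21.1 CPM and from 3.17 through 30.1 to 97.6 CPM. Its lowest Cd146+ value was that of empty vector 4, and the other 5 Cd146+ libraries were above every Cd31+ library. The log2 fold change was 1.91 ± 0.62, and 2.53 ± 0.32 with the block (adjusted p = 0.182 and 0.0298). Nkd1, its paralog, had a log2 fold change of 1.81 ± 0.57. Of 31 genes of VEGF, angiopoietin, ephrin and Notch signalling, 3 were higher and 2 lower, and Vegfa (-0.56 ± 0.17) lay opposite to Vegfc.

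Matrix genes lay in both directions. Of 33 collagens and fibre proteins, 6 were higher (18.2%) and 3 lower (9.09%) at an unadjusted p under 0.05, with a median log2 fold change of -0.04. Among all genes 8.34% were higher and 9.12% lower, so the share of lower collagen and fibre genes was near that of all genes. Fn1 ranged from 18196 to 29075 CPM in Cd31+ and from 13713 to 21997 CPM in Cd146+ libraries (-0.47 ± 0.16), and Col16a1, a fibril-associated collagen, was also lower (-0.60 ± 0.17). Emilin1, a glycoprotein of elastic fibres, ranged from 40.3 to 167 CPM and from 158 to 363 CPM (1.23 ± 0.33), and Loxl3, a collagen cross-linking enzyme, was also higher (0.80 ± 0.21). Leaving out single libraries gave 4 to 6 higher and 2 to 9 lower. Of 37 basement membrane and adhesion genes, 5 were higher (13.5%) and 6 lower (16.2%), and 10 and 8 with the block. Laminin chains lay on opposite sides. Lama4, a laminin chain of vascular basement membranes, ranged from 67.1 to 124 CPM and from 98.6 to 262 CPM (0.90 ± 0.27), and Lama5 ranged from 272 to 955 CPM and from 117 to 416 CPM (-1.20 ± 0.39). Nid2, which links laminin to collagen IV and was named after its values were seen, was called with the block (1.65 ± 0.19, adjusted p = 0.0279, against 1.19 ± 0.52 and 0.271 without it). Itgav, the alpha V integrin, did not overlap (344 to 393 CPM and 247 to 326 CPM, -0.36 ± 0.08, adjusted p = 0.131). Of 37 genes of TGF-beta signalling and endothelial to mesenchymal transition, 1 was higher (2.70%) and 2 lower (5.41%), below the shares of all genes. With the block 2 were higher and 5 lower. Without it Ltbp1 was at -0.84 ± 0.21. Twist1 was at 0.72 ± 0.27, and at 0.20 without Cd146+ empty vector 4 and nc shRNA 3.

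Markers of contractile and fibroblastic cells were described in the same way. Of 27 stellate cell and fibroblast genes 5 were higher and 0 lower (median 0.61), and of 16 smooth muscle and pericyte genes 4 were higher and 0 lower (median 0.77), against 8.34% higher and 9.12% lower among all genes. Leaving out single libraries gave 1 to 7 and 1 to 6 higher genes with medians of 0.34 to 0.78 and 0.37 to 1.02. With the block 5 stellate cell and fibroblast genes were higher and 2 lower. The smooth muscle count was 2 with the block, and it was 1 in the libraries with Y-linked transcripts. None passed an adjusted p under 0.05. Pdgfrb, the receptor of pericytes and stellate cells, ranged from 142 through 191 to 400 CPM in Cd31+ and from 169 through 365 to 664 CPM in Cd146+ libraries (0.96 ± 0.34). Pdgfra, its fibroblast counterpart, was at 0.61 ± 0.25. Thy1, a surface marker of fibroblasts, was at 1.58 to 2.38 CPM in 4 Cd31+ libraries, at 33.0 and 49.4 CPM in the other 2, and at 23.9 to 210 CPM in Cd146+ libraries (2.73 ± 1.04). Myl9, a light chain of smooth muscle myosin, ranged from 24.2 through 35.9 to 155 CPM and from 90.9 through 279 to 470 CPM (1.91 ± 0.53), and Mylk, the kinase of that chain, was at 1.34 ± 0.60. The defining smooth muscle markers were divided, with Myh11 at 2.30 and Acta2, Tagln and Cnn1 at -0.16, -0.14 and -0.002. Col1a1 was at -0.70 ± 0.55, opposite to Pdgfrb and Pdgfra. The log2 fold changes were positive for 23 and negative for 4 stellate cell and fibroblast genes. For smooth muscle and pericyte genes these counts were 13 and 3. The summed level of the stellate cell and fibroblast list overlapped (21791 to 39870 CPM in Cd31+ and 11296 to 34426 CPM in Cd146+ libraries). Of 47 positional and mesodermal transcription factors 3 were higher and 3 lower (7 and 3 with the block, 0 to 5 higher when single libraries were left out), among them Lhx9, a LIM homeobox factor, at 1.12 to 29.6 CPM and 0.437 to 7.98 CPM (-3.29 ± 0.92). Nr2f1, a nuclear receptor of the same list, was at -0.76 ± 0.24. Of 26 Hox genes 3 were higher and 0 lower (1 to 4 higher when single libraries were left out), and Hoxa9 was at 39.5 CPM in Cd146+ empty vector 4 against 2.08 CPM or below in the other 11 libraries. Of 21 arterial, venous and continuous endothelial genes 0 were higher and 3 lower, including Fbln2, a matrix glycoprotein, at -0.55 ± 0.17. The log2 fold changes of that list were nevertheless positive for 14 of 21, with a median of 0.20 (-0.12 with the block). Of 41 interferon response genes 1 was higher and 0 lower (median -0.11), and 0 to 5 were lower when single libraries were left out. With the block 2 were higher and 10 lower (median -0.32), against 1411 higher and 1474 lower of all 15676 genes in that fit.

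**Figure D4:**
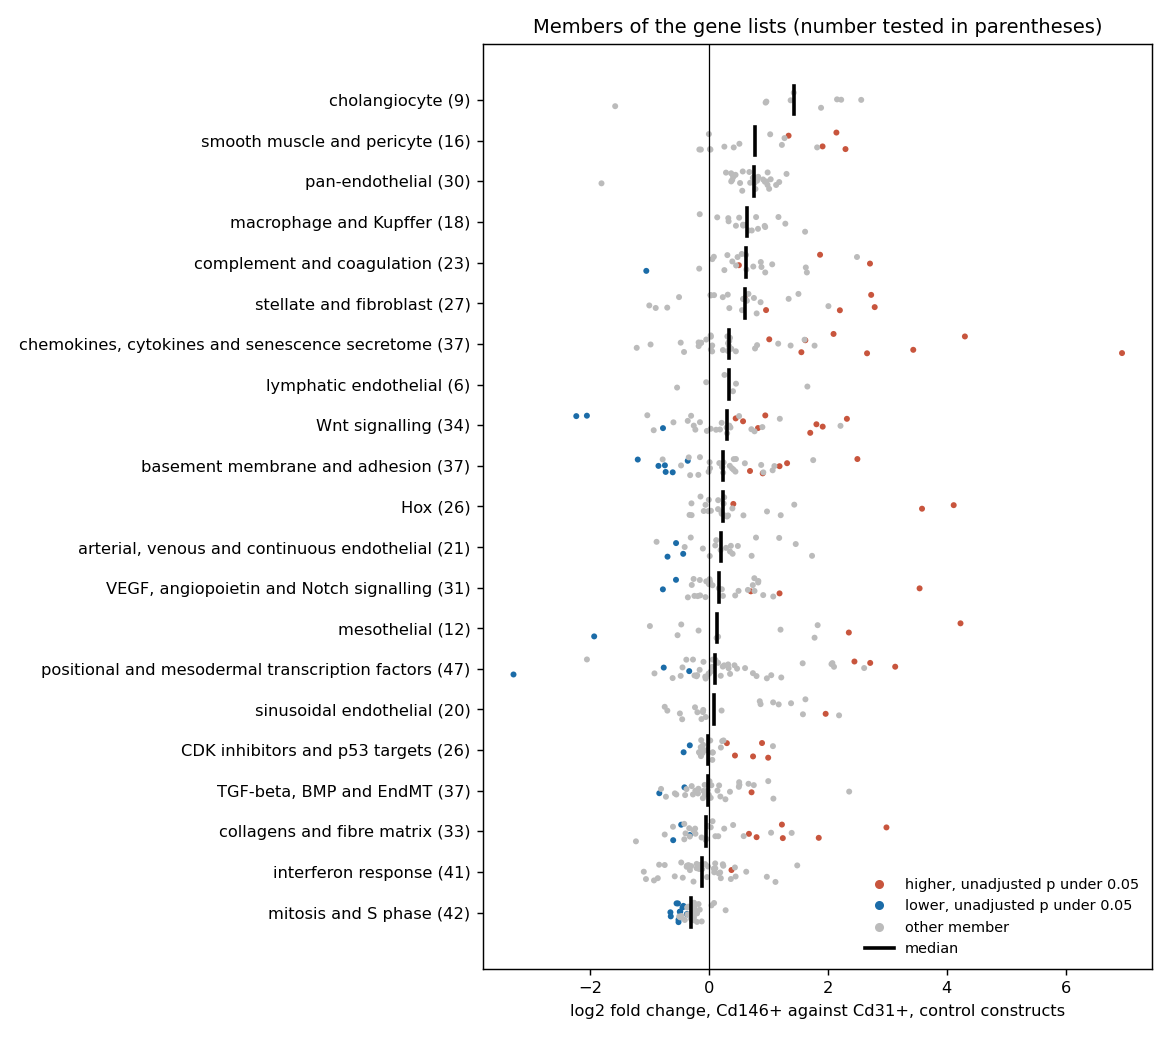
Log2 fold change in Cd146+ against Cd31+ cells of the tested members of 21 gene lists that had at least 6 tested members, with coloured points for an unadjusted p under 0.05 and a line at the median. Of 42 mitosis and S phase genes 12 are lower and 0 higher, while the secretome list has 8 higher and 0 lower of 37, and the collagen list is divided, 6 higher and 3 lower.

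The difference between the populations was also compared between the control constructs. For the difference between the effect in nc shRNA and in empty vector libraries, 0 of 15676 genes passed an adjusted p under 0.05 and 223 (1.42%) an unadjusted p under 0.05. In the 6 P16 shRNA libraries 0 of 14817 genes passed an adjusted p under 0.05 and 1439 (9.71%) an unadjusted p under 0.05, and in the 6 P16 libraries the counts were 0 and 609 of 14480 (4.21%). These libraries were not used in the control comparison, but they bear many of the same replicate numbers, so they are not independent of it. Of the 35 genes higher with the block, 34 could be tested in each set, and 32 were higher there in the P16 shRNA and 32 in the P16 libraries. Of the 22 lower genes, 21 of 21 and 21 of 22 were lower. Among all genes 72.7% and 62.4% had the same sign as in the controls.

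A read share and a gene property moved with the population. The 18S ribosomal RNA gene Rn18s-rs5, named after its values were seen, took 0.191% to 0.573% of counts in Cd31+ and 0.520% to 1.36% in Cd146+ libraries (log2 fold change 1.71 ± 0.30, adjusted p = 0.107, with the block 2.02 ± 0.28 and 0.0363). Ribosomal RNA in such libraries is what poly-A selection leaves behind. Short genes lay higher and long genes lower in Cd146+ cells. Of 245 protein-coding genes with a gene model under 1000 bases 22.9% were higher and 1.63% lower at an unadjusted p under 0.05 (median log2 fold change 0.23), and of 2441 genes over 8000 bases 6.27% were higher and 18.8% lower (median -0.08). The medians of the same classes were 0.51 and -0.21 in the P16 shRNA libraries and 0.02 and 0.04 in the P16 libraries. Among the genes above, the gene models of Cox6a1, Ndufa11 and Ost4 measured 702, 1092 and 1272 bases and those of Rlim, Trim33, Zfp292 and Zfp26 measured 8917, 9805, 9986 and 14154 bases. The part of RNA quality or library preparation in these differences was not tested. The gene model of Svep1 measured 16117 bases.

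**Figure D5:**
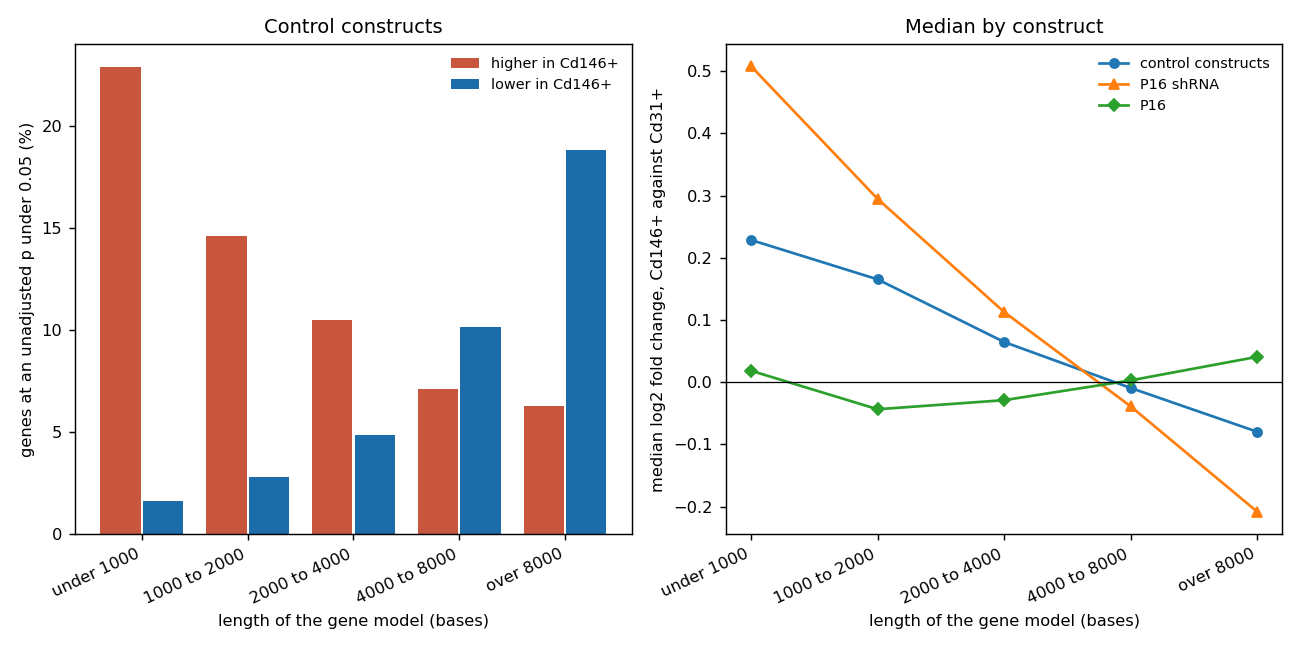
Left, share of protein-coding genes (%) higher or lower in Cd146+ cells at an unadjusted p under 0.05 by length of the gene model (bases) with control constructs. Right, median log2 fold change by length for control, P16 shRNA and P16 libraries. The share of higher genes falls from 22.9% to 6.27% and that of lower genes grows from 1.63% to 18.8% from the shortest to the longest class.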

How the data were processed

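RNA was sequenced from poly-A selected, non-directional libraries, and sequencing and primary data analysis were done by a service company. The aligner and the counting tool are not given in the sources used here. The authors deposited whole-number counts of reads per gene for 56748 genes, which were not normalized, and FPKM values per gene, which they scaled by gene length and library total. The length of each gene model in the deposited table has no stated source and was used only to form length classes. Columns of the authors' own comparisons (fold changes and p-values of each construct against its control) were not used.

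Count columns were assigned to libraries by their names, with 12 of 24 in the comparison. Counts were tested with edgeR 4.0.16 in R 4.3.3 (filterByExpr, TMM scaling, robust quasi-likelihood fit, two-sided test) in a model with construct and population, with Benjamini-Hochberg adjustment over all 15676 genes that passed the filter. SE was derived from the test of the fit, as the absolute log2 fold change over the square root of its F statistic. It thus restates the test and is not a separate measure of precision. The same fit was made with the replicate number as a block. All 7 pairs of same-numbered libraries across populations correlated above 0.1 after removal of the population means. Some pairs with different numbers did too, up to r = 0.30, so this check does not settle whether the numbers pair the libraries. The labels do not say what a number marks. limma 3.58.1 (voom with duplicateCorrelation) and DESeq2 1.42.0 (Wald test) were alternatives, beside other filters, size factors, leaving out single libraries, single constructs, summed same-numbered libraries, all 24 libraries and a term for Y-linked expression. Fits without the 2 libraries that stood apart, with only the 8 libraries with Y-linked transcripts, and with the block after leaving out libraries were added after the data were seen. The edgeR step was tested on simulated data. CPM are TMM-scaled, FPKM were used only to set levels of different genes side by side, and counting floors cover counting error only. Since counting did not use strand, reads of overlapping antisense genes are not separated, and closely related copies, such as those of the 18S ribosomal RNA gene, can share reads.

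The comparison and the 24 gene lists (701 entries, 2 of them not matched in the table) were chosen with earlier results of these data known. Named genes were Pecam1, Mcam and Cdkn2a, the 12 protein-coding genes of smallest p in each direction whose libraries did not overlap between populations (none passed an adjusted p under 0.05, and 1 of them is not reported here), the defining markers and the 4 members of smallest p of each list, and Xist with Y-linked genes. Others are named as chosen after their values were seen.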

Additional observations from a re-analysis of the deposited data

Results flagged for a closer look

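A level was set aside for a closer look where the highest or lowest of the 6 libraries of a population was separated from its neighbour by a gap beyond Dixon's 95% critical value for 6 values. This applied to 33 of 198 groups of values checked. A chance rate of about 1 in 20 holds only for independent, normally distributed values. The gaps were taken on CPM without a log, and many of the genes were chosen from these same data. The count therefore cannot be compared with that rate.

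Cd146+ empty vector 4 was the separated library in 10 of them. It was highest for Sdsl (18.2 CPM), Twist1 (135 CPM), Igfbp2 (4536 CPM), Igfbp5 (22.9 CPM), Cxcl1 (11.2 CPM), Arhgdib (143 CPM), Sox9 (134 CPM) and Hoxa9 (39.5 CPM). It was lowest for Bcl2l11 (8.37 CPM) and Nr2f1 (3.59 CPM).

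Cd146+ nc shRNA 3 was highest for Msln (432 CPM) and Upk3b (317 CPM) and lowest for Ndufa11 (41.2 CPM). Cd146+ nc shRNA 1 was highest for Pros1 (231 CPM) and lowest for Mcm6 (38.1 CPM), and Cd146+ empty vector 2 was highest for Lhx9 (7.98 CPM).

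Cd31+ empty vector 5 was highest among Cd31+ libraries for Pecam1 (251 CPM), Mcam (298 CPM), Igfbp2 (292 CPM), Igfbp5 (2.81 CPM), Myh11 (25.6 CPM), Krt8 (12.2 CPM), Hoxa9 (1.03 CPM) and Xist (742 CPM), and its Kdm5d was at 0 CPM. It is the Cd31+ control library without Y-linked transcripts. Cd31+ nc shRNA 3 was highest for Svep1 (147 CPM), Nr2f1 (16.3 CPM) and Pdgfrb (400.03 CPM) and lowest for Arhgdib (54.5 CPM). Cd31+ nc shRNA 1 was highest for Trim33 (64.6 CPM), Csnk1g1 (85.0 CPM) and Gtf3c3 (56.0 CPM), and Cd31+ empty vector 2 was highest for Rn18s-rs5 (5848 CPM).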

How the results depend on the processing

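Without the replicate block 0 genes passed an adjusted p under 0.05 in edgeR, as with same-numbered libraries summed and with limma voom. The count became 57 with the replicate block, 5 with every gene of at least 1 count, 3 in the 8 libraries with Y-linked transcripts, 43 when all 24 libraries set the spread and 661 with the DESeq2 Wald test, and it ranged from 0 to 13 when single libraries were left out (13 without Cd146+ empty vector 2). The causes were not tested, apart from the smaller number of libraries in some. The count at an unadjusted p under 0.05 (2737) was 1175 with nc shRNA and 910 with empty vector libraries alone, 1265 with same-numbered libraries summed and 1341 with limma voom, and 1955 to 3195 without single libraries. With the replicate block, leaving out single libraries gave 2 to 211 genes, and the 8 libraries with Y-linked transcripts gave 20. It gave 17, 2, 211, 3, 6 and 151 without Cd31+ nc shRNA 1, 2, 3 and empty vector 1, 2, 5, and 102, 203, 3, 33, 58 and 6 without Cd146+ nc shRNA 1, 3, 5 and empty vector 2, 4, 5. The difference between control constructs had 589 genes at an unadjusted p under 0.05 with every gene of at least 1 count (223 otherwise). DESeq2 gave 241 genes at an adjusted p under 0.05 in the P16 shRNA and 41 in the P16 libraries, where edgeR gave 0. In the P16 libraries the replicate block also gave 0 genes, with 697 at an unadjusted p under 0.05. The P16 shRNA libraries of the populations share only the number 3, so no paired analysis was possible there. Leaving out single libraries gave 0 to 393 genes in the P16 shRNA libraries (393 without Cd146+ P16 shRNA 3), with 677 to 3925 at an unadjusted p under 0.05, and 298 to 1278 in the P16 libraries. Among the 68 genes with a reported fold change, the direction turned for Pecam1 (-0.32 with limma voom), Mcam (-0.0673 with the replicate block, -0.0916 with limma voom) and C1s1 (-0.19 with empty vector libraries alone). At the depth of these libraries, differences near the floor of 3 reads cannot be resolved.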

Other observations

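Subunits of the respiratory chain, grouped by gene symbol after the values were seen, lay higher in Cd146+ cells. Of 38 NADH dehydrogenase subunits (Nduf genes) 21 were higher and 0 lower at an unadjusted p under 0.05, with a median log2 fold change of 0.30 and 36 of 38 positive. Of 16 cytochrome c oxidase subunits (Cox4 to Cox8) 8 were higher and 0 lower (median 0.33), and of 17 ATP synthase subunits (Atp5 genes) 8 were higher and 0 lower (median 0.26). Over all genes tested 8.34% were higher and 9.12% lower. These medians were 0.51, 0.60 and 0.56 in the P16 shRNA libraries and 0.03, 0.02 and 0.00 in the P16 libraries. Median gene model lengths were 1438, 1026 and 2181 bases, so these families belong to the shorter genes.

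Cytosolic ribosomal protein genes had a median gene model of 1781 bases. Of 77 tested, 1 was higher and 5 lower, with a median log2 fold change of -0.07. Their median was 0.33 in the P16 shRNA and -0.26 in the P16 libraries. The part of gene length in the values of these families was not tested. Mitochondrial ribosomal protein genes (77 tested) had 14 higher and 2 lower with a median of 0.06. Of 349 zinc finger protein genes (Zfp), with a median gene model of 4634 bases, 4 were higher and 40 lower (median -0.07). For comparison, 8.34% of all genes tested were higher and 9.12% lower. In protein-coding genes of 4000 to 8000 bases the shares were 7.09% and 10.1%. The share of lower Zfp genes was thus not far above these, and that of higher Zfp genes was below them. Of 731 processed pseudogenes tested, 23 were higher and 149 (20.4%) lower in Cd146+ cells, with a median log2 fold change of -0.16.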
